A study of Mus musculus with 6 samples.

Results

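The genes described here are 10 mouse genes that respond to mechanical load or hypertrophic signalling in muscle: Ankrd1, Ankrd2, Xirp1, Xirp2, Csrp3, Fhl1, Fhl2, Rcan1, Srf and Hopx. They were chosen by name, not by their values, from the 54838 genes of the count table. Of the 10, 8 had counts in any library and 7 had enough counts to be tested among 14708 genes.

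RNA was sequenced from the atria of 6 old mice, with 1 library per mouse. The question set by the design was how atrial expression differs between old mice that lack protein kinase C epsilon (PKC-epsilon, gene Prkce), a kinase activated by lipid signals, and old controls. Males and females were used, aged 20.9 ± 0.43 months on average in every group (the kind of error is not named). Controls are C57BL/6J mice, and knockouts are PKC-epsilon knockout mice of JAX stock 004189. The labels name no Cre driver, tissue restriction, treatment or littermate control.

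The labels contradict each other for 4 of the 6 libraries, so each comparison was made by both readings. Library names, which head the columns of the count table, call 3 libraries WT and 3 KO; below, WT 1 to 3 and KO 1 to 3 follow these names and take their number from the title. The genotype field, the title and the mouse line call WT 1, KO 2 and KO 3 wild-type and KO 1, WT 2 and WT 3 knockout. WT 1 and KO 1 also have names of another series (Old) than the other 4, which begin with a number. In the 4 numbered libraries alone the readings are mirror images. Prkce itself stood at 36.2, 11.7 and 30.2 CPM (counts scaled for library size by the trimmed mean of M values, TMM) in WT 1 to 3 and at 9.19, 5.14 and 28.6 CPM in KO 1 to 3. It was thus low in WT 2 and high in KO 3 against their names, and low in KO 2 and high in WT 3 against their genotype field. No direction below, in either reading, is a direction that the targeted gene bears out in every library.

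Total counts ran from 11574206 to 24138824 per library. Of the 14 atrial cardiomyocyte markers listed, 13 had counts and Adm was at 0; summed, they reached 45231 to 54074 CPM. The 15 genes of a general cardiomyocyte list summed to 40002 to 50812 CPM. By library name the ranges of that sum were 40002 to 50200 CPM in WT and 40565 to 50812 CPM in KO. Summed Y-linked genes were at 1.08 and 1.09 CPM in WT 1 and WT 2 and at 78.8 to 146 CPM in the other 4. In whole tissue, fewer cells of a type and less RNA per cell cannot be told apart.

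When a muscle cell is stretched, proteins at the Z-disc, at titin's elastic segment and at the intercalated disc pass the strain to kinases, phosphatases and transcription factors. Ankyrin repeat proteins bind titin, LIM domain proteins link the Z-disc and titin to signalling, and Xin repeat proteins bind actin at the intercalated disc. Calcineurin, a calcium-dependent phosphatase, activates NFAT factors, while serum response factor (SRF) binds the CArG box in promoters of contractile and immediate early genes. Several of these genes are widely used markers of load and hypertrophy in the heart.

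Since SRF is a member, the promoters of all members were searched for its site. RefSeq promoters (GRCm38.p6) were found for 9 of the 10 members, with 14 start sites; Xirp1 had no entry. In the 250 bases before the start, a CArG box was found at 5 of these 14 starts, in Fhl1, Fhl2 (both starts), Srf and Hopx, against 1.47% of 32851 promoters of the same length. The next lines show 60 bases around both boxes of Srf and 40 bases around those of Fhl1, Fhl2 (at the second start) and Hopx, 5′ to 3′ on the gene's strand, with the CArG box in capitals. The last line shows the MEF2 box of Xirp2, a site of the muscle factors of that name, also in capitals; a MEF2 box was found in 0.508% of the promoters.
Srf, chr17:46556200-46556259, minus strand: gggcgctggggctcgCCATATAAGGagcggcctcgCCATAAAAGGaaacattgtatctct
Fhl1, chrX:56779566-56779605, plus strand: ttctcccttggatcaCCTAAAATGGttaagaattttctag
Fhl2, chr1:43163968-43164007, minus strand: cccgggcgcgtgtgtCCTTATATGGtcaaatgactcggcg
Hopx, chr5:77115182-77115221, minus strand: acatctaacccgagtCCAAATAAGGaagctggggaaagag
Xirp2, chr2:67445913-67445952, plus strand: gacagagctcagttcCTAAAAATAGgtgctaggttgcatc

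The boxes lay near the starts. In Srf they spanned 82 to 73 and 62 to 53 bases upstream, in Hopx 83 to 74, in Fhl1 102 to 93, and in Fhl2 96 to 87 before the first start and 31 to 22 before the second. Other members held other motifs, searched on both strands. Ankrd1 had the TEAD (MCAT) site CATTCC, bound by the partners of YAP, at 2 places (12.6% of all promoters hold at least 1). The second start of Rcan1, that of the isoform known to be induced by calcineurin, had 3 copies of the NFAT core GGAAA, and so did the second start of Hopx. The core was found in 6 of the 14 promoters of the members, against 55.6% of all promoters. In Srf 1 such core overlapped the second CArG box. TATAAA was found at 4 of the 14 starts and in 12.4% of all promoters. A match is only a stretch of letters, and no binding was measured here.

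**Figure D1:**
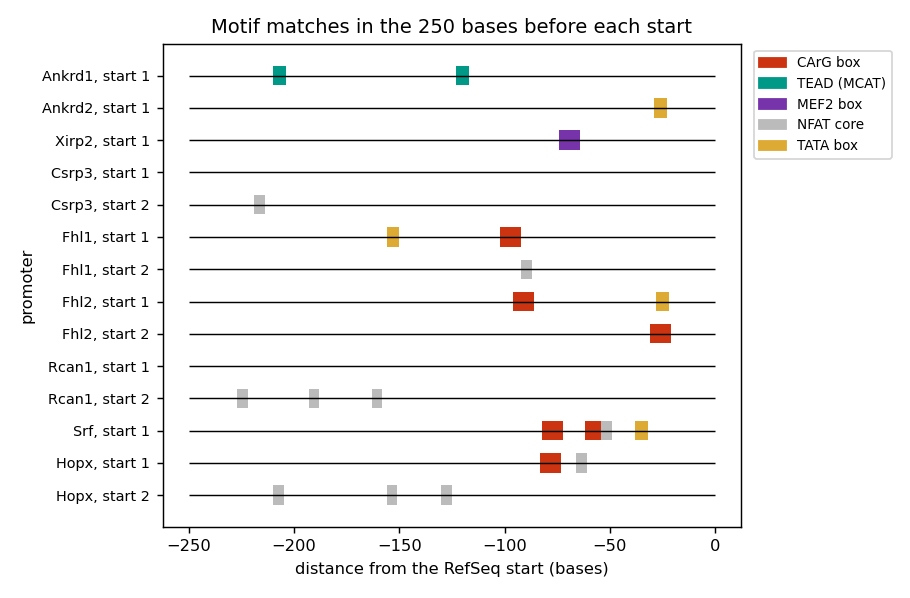
Positions of motif matches in the 250 bases before each of the 14 RefSeq starts of 9 members; the horizontal axis is the distance from the start in bases and coloured blocks are matches. CArG boxes are present before starts of Fhl1, Fhl2, Srf and Hopx, and the 2 TEAD sites stand before Ankrd1.

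Xirp1, Srf and Ankrd2 could not be followed. Srf (chromosome 17, 46548329 to 46556175) and Xirp1 (chromosome 9, 120013755 to 120023598) were at 0 in all 6 libraries. The whole body of Srf lies inside Gm26904, a long non-coding RNA gene of the opposite strand, and that of Xirp1 inside Cx3cr1 on the same strand, although 100% of the exon length of each is free of exons of other genes. Across the counted genes, 675 of 684 protein-coding genes placed like this (98.7%) were at 0 in every library, against 19.4% of the 19494 with at least 50% of the body free. A value of 0 for Srf or Xirp1 therefore gives no level of the RNA. Ankrd2, whose gene body (chromosome 19, 42036000 to 42045110) overlaps no other gene, is the form of the ankyrin repeat family best known from slow skeletal muscle. It had 20 counts in all: 0, 7 and 4 in WT 1 to 3 and 5, 0 and 4 in KO 1 to 3. These levels, at most 0.588 CPM, lie close to the 0.131 to 0.252 CPM that 3 counts give, and Ankrd2 did not pass the filter on low counts.

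The other 7 members were read from 12794 (Rcan1) to 442986 (Ankrd1) counts over the 6 libraries. The next values treat reads as coming from exons only, which is not known, because the feature type counted is not given. Genes lying inside other genes were at 0 in 675 of 684 cases although their exons were free of other exons. Reads may thus have been assigned over whole gene bodies, and values per kilobase of exon would then include reads from introns. Scaled by the exon length that lies outside other genes, Ankrd1 was at a mean of 1525 CPM per kilobase and Csrp3 at 503. Fhl2 followed at 260 (231.7 to 291.9 over the libraries) and Hopx at 211 (196 to 248), and these ranges overlap. Fhl1 at 75.7 and Xirp2 at 75.4 could not be ordered, and Rcan1 was lowest at 42.0 by this scaling. Of the 11979 exon bases of Xirp2, 98.6% are free of exons of other genes. Over that longer length its value would be lower, so its place beside Fhl1 and above Rcan1 holds only for this scaling. Xirp2 is placed with most reserve, because only 25.6% of its exon length is free of the antisense gene Gm13601. For Hopx the share was 72.8% (antisense gene Hopxos) and for Rcan1 92.9% (antisense gene Gm46555); the library kit does not mark strand, and all 3 antisense genes were at 0.

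**Figure D2:**
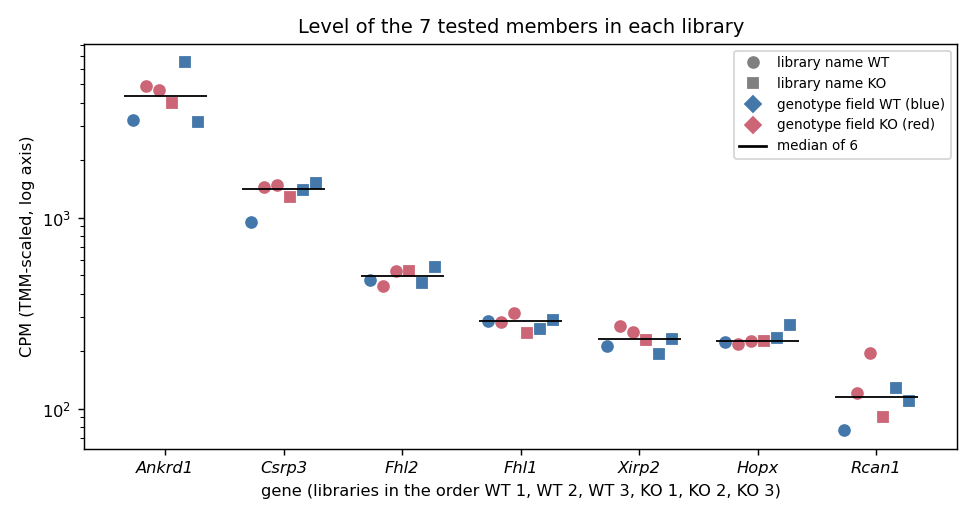
CPM (vertical log axis) of the 7 tested members in each of the 6 libraries; circles and squares are libraries named WT and KO, blue and red give the genotype field as WT and KO, and the bar is the median of 6. Ankrd1 runs from 3150 to 6488 CPM and Rcan1 from 76.9 to 196 CPM, while Hopx stays between 217 and 273 CPM.

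Neither reading of the labels gave a member past the test. By library name, edgeR's quasi-likelihood test called 0 of the 7 members at an adjusted p of 0.05, with 0% of the 14708 genes called (219 of the 14708 had an unadjusted p under 0.05; DESeq2 and limma-voom also called 0). By genotype field it again called 0 of 7, with 0.0136% of all genes called (Myl2 and Gm26917; 837 at an unadjusted p under 0.05). The count was 27 in DESeq2 and 1 in limma-voom, and 0 in edgeR without WT 1 or KO 3. In both fits 0 members had an unadjusted p under 0.05. With the replicate number as a block, the genotype field gave 51 genes instead of 2, and still 0 members.

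Ankrd1 (chromosome 19, 36111961 to 36120099) encodes CARP, a titin-binding and nuclear ankyrin repeat protein that is strongly induced by load. It stood at 3233, 4882 and 4662 CPM in WT 1 to 3 and at 3997, 6488 and 3150 CPM in KO 1 to 3. KO 2 was highest and KO 3 lowest, so both extremes share the name KO and also the field WT. The means were 4259 ± 895 CPM in WT and 4545 ± 1735 CPM in KO (SD, n = 3 each), a log2 fold change of 0.09 (SE 0.26, 95% interval -0.49 to 0.68, edgeR adjusted p = 0.99993). By genotype field the log2 fold change was 0.07 (SE 0.27, -0.52 to 0.66, adjusted p = 0.979). The SD among field-WT libraries was 1904 CPM and that among field-KO libraries 461 CPM. A single library moved the estimate: by library name it was -0.25 without KO 2 and 0.30 without KO 3. By genotype field it was 0.50 (SE 0.19, edgeR adjusted p = 0.694, unadjusted 0.022) without KO 2 and -0.11 without KO 3.

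Xirp2 (chromosome 2, 67446002 to 67526614), a Xin repeat protein of the intercalated disc and Z-disc, was at 214, 270.0 and 251 CPM in WT 1 to 3 and at 229, 192 and 232 CPM in KO 1 to 3. WT 2 was highest and KO 2 lowest, and the groups overlapped in both readings. By library name the log2 fold change was -0.17 (SE 0.16, 95% interval -0.51 to 0.17). By genotype field it was 0.23 (SE 0.14, -0.08 to 0.54, edgeR adjusted p = 0.909), with 3 field-KO libraries at 229 to 270.0 CPM and 3 field-WT libraries at 192 to 232 CPM. The sign therefore depends on which label is taken.

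Csrp3 (chromosome 7, 48830398 to 48848033) encodes muscle LIM protein, a part of the Z-disc stretch sensor. Its levels were 947, 1446 and 1476 CPM in WT 1 to 3 and 1283, 1390 and 1514 CPM in KO 1 to 3. WT 1 stood below the other 5, which lay within 1283 to 1514 CPM. The log2 fold change was 0.11 by library name (SE 0.19, 95% interval -0.30 to 0.53) and 0.13 by genotype field (SE 0.19, -0.28 to 0.54, edgeR adjusted p = 0.941). Without WT 1, which is WT in both readings, these became -0.07 and -0.06. WT 1 also had the lowest summed level of the listed smooth muscle markers (1939 CPM, others up to 2761), macrophage markers (780 CPM, others up to 1173) and endothelial markers (1306 CPM, others 1330 to 1623). The same held for the listed Z-disc genes (9876 CPM, others up to 12320), LIM proteins (1468 CPM, others up to 2227) and skeletal muscle markers (2121 CPM, others up to 2948). Fibroblast, white adipocyte and epicardial markers were lowest in other libraries. The part of all these lists in the result was not tested.

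Fhl1 (chromosome X, 56731787 to 56793346) and Fhl2 (chromosome 1, 43123074 to 43196984) encode LIM-only proteins that bind titin; Fhl1 takes part in a stretch sensor with kinases, and Fhl2 also binds SRF. Fhl1 was at 288, 285 and 317 CPM in WT 1 to 3 and at 247, 260 and 290.0 CPM in KO 1 to 3. KO 3 lay within the WT range, so the groups overlapped. Fhl2 was at 469, 439 and 522 CPM in WT 1 to 3 and at 524, 455 and 554 CPM in KO 1 to 3. Its highest and lowest libraries differed by 1.26-fold, and those of Fhl1 by 1.28-fold. By library name the log2 fold changes were -0.16 for Fhl1 (SE 0.14, 95% interval -0.48 to 0.16) and 0.10 for Fhl2 (SE 0.15, -0.24 to 0.43). By genotype field they were 0.02 (SE 0.14, -0.30 to 0.34) and 0.01 (SE 0.15, -0.32 to 0.34). These 4 intervals reach no further than -0.48 and 0.43 on the log2 scale.

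Rcan1 (chromosome 16, 92391953 to 92470867) encodes a calcineurin inhibitor that is itself induced by NFAT, and its RNA is read as a gauge of calcineurin activity. It stood at 76.9, 121 and 196 CPM in WT 1 to 3 and at 90.6, 128 and 109 CPM in KO 1 to 3. WT 3 was highest and WT 1 lowest, so the KO libraries all lay inside the WT range. By library name the mean was 131 ± 60.1 CPM in WT and 109 ± 18.9 CPM in KO (SD, n = 3), and the log2 fold change was -0.26 (SE 0.30, 95% interval -0.94 to 0.42). By genotype field it was 0.38 (SE 0.29, -0.27 to 1.02, edgeR adjusted p = 0.909). WT 3 set the size in both: without it the values were 0.15 and 0.01. With the summed Y-linked level in the model, the change by library name was -0.73 (SE 0.27, edgeR adjusted p = 0.9998, unadjusted 0.0235), and without WT 1 it was -0.53 (SE 0.21, unadjusted p = 0.0298 in edgeR). The change by genotype field went the other way, at 0.60 without KO 1 (SE 0.26, edgeR adjusted p = 0.8999, unadjusted 0.0446). With the replicate block it was 0.33 by genotype field (SE 0.16, edgeR unadjusted p = 0.0557). The part of sex in the level of Rcan1 was not tested.

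Hopx (chromosome 5, 77086988 to 77115121) encodes a small homeodomain protein that does not bind DNA and represses SRF-dependent transcription. Its levels were 222, 217 and 225 CPM in WT 1 to 3 and 227, 235 and 273 CPM in KO 1 to 3. By library name its groups did not overlap, as for 5.95% of all genes tested; by genotype field 12% of genes and 0 members had groups apart. The gap was small: WT 3 had a 95% Poisson interval of 219 to 232 CPM, and KO 1 of 219.7 to 234 CPM, so these neighbours do not differ beyond counting error. The log2 fold change was 0.15 (SE 0.14, 95% interval -0.17 to 0.46) by library name and -0.13 (SE 0.14, -0.43 to 0.18) by genotype field. Without KO 3, the highest library, the value by library name was 0.06.

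**Figure D3:**
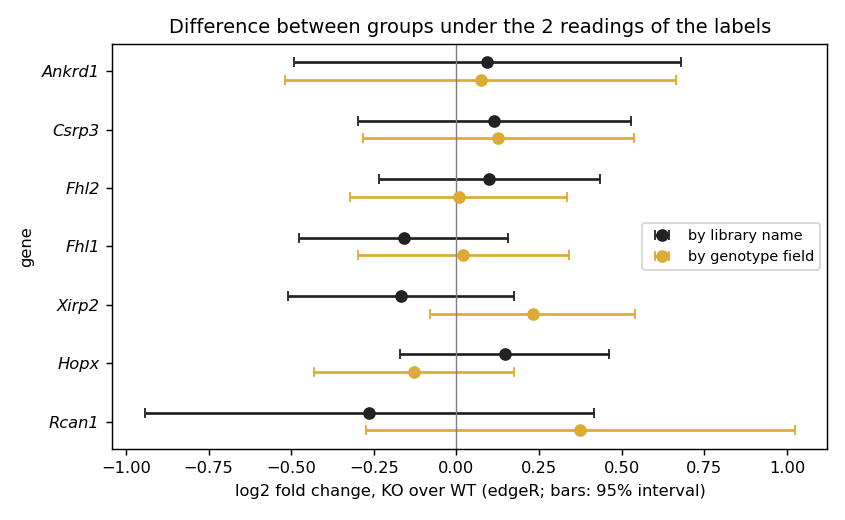
Log2 fold change of KO over WT (horizontal axis) for the 7 tested members by library name (black) and genotype field (yellow), from edgeR with 3 libraries in each group; bars are 95% intervals. Every interval includes 0, and Xirp2, Hopx, Rcan1 and Fhl1 stand on opposite sides of 0 in the 2 readings.

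The spread over the 6 libraries, which does not depend on any label, was widest for Rcan1 and Ankrd1. The SD of log2 CPM was 0.46 for Rcan1, with a 2.55-fold range, and 0.40 for Ankrd1, with a 2.06-fold range. The median over all genes tested was 0.26, and over the 1497 genes with a mean of at least 100 CPM it was 0.19. Csrp3 stood at 0.25, Xirp2 at 0.17, Fhl2 and Fhl1 at 0.13 and Hopx at 0.12. Of the genes tested, 86.4% had a lower SD than Rcan1 and 78.4% a lower SD than Ankrd1, against 8.81% for Hopx. Thus 2 of 7 members lay above the median of all genes. Csrp3 also lay above the median of the genes with a mean of at least 100 CPM.

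Most members lay below their own mean in both libraries of the Old series, some of them by little. These deviations ran from -0.07 (Hopx) to -0.58 (Rcan1) in WT 1 on the log2 scale. In KO 1 they ran from -0.007 (Xirp2) to -0.34 (Rcan1). The share of all genes tested that lay below their mean there was not computed. In WT 1 6 of 7 members lay below their own mean (all but Fhl1), and in KO 1 6 of 7 did (all but Fhl2), against 1 to 3 of 7 in each numbered library. Relative to the cardiomyocyte list, whose sum was highest in these libraries (50200 CPM in WT 1 and 50812 CPM in KO 1), 7 of 7 were below their mean in both. The part of the library series and of that sum was not tested. No library was lowest or highest for most of the 7: KO 3 was highest for Csrp3, Fhl2 and Hopx but lowest for Ankrd1. WT 3 was highest for Fhl1 and Rcan1, and KO 2 was highest for Ankrd1 but lowest for Xirp2. The median of the 7 deviations from each gene's own mean lay between -0.11 (WT 1) and 0.13 (WT 3) on the log2 scale.

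**Figure D4:**
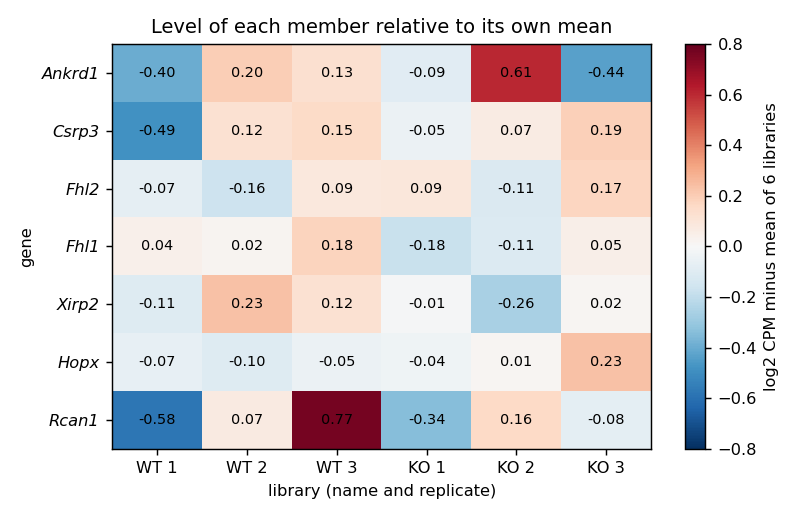
Log2 CPM of each tested member in each library minus the mean of that gene over the 6 libraries; red is above and blue below the mean, with the value in each cell. Rcan1 spans -0.58 (WT 1) to 0.77 (WT 3) and Ankrd1 spans -0.44 (KO 3) to 0.61 (KO 2), and no column has a single colour.

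Across the 6 libraries 15 of the 21 pairs of tested members had a positive Pearson correlation of log2 CPM, and 0 had an exact permutation p under 0.05. The largest was that of Csrp3 with Rcan1, with r = 0.72 (exact two-sided permutation p = 0.132 over 720 pairings, adjusted over the 21 pairs 0.941) and Spearman's rho of 0.60 (exact permutation p = 0.242, adjusted 0.846). It rests on WT 1 and KO 1, the libraries farthest from the median of Csrp3 and also the Old series: without them r was -0.01. Fhl2 and Hopx had r = 0.65 (exact permutation p = 0.110, adjusted 0.941), rho of 0.66 (exact permutation p = 0.175, adjusted 0.846), r = -0.42 without the 2 libraries farthest from the median of Fhl2, and r = 0.73 as a value in the 4 numbered libraries. Ankrd1 and Fhl2 had r = -0.55 (exact permutation p = 0.25, adjusted 0.941) and rho of -0.77 (exact permutation p = 0.103, adjusted 0.846). Their r was -0.04 without the 2 libraries farthest from the median of Ankrd1, and -0.79 as a value in the 4 numbered libraries. Expressed relative to the cardiomyocyte list, Fhl2 and Hopx reached r = 0.89 (exact permutation p = 0.00139, the smallest that 720 pairings give; adjusted 0.0292), but both values then share a denominator, and so do all 21 pairs, whose r was then positive.

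Among the 10534 genes tested with a mean of at least 5 CPM, those with a pattern over the 6 libraries most like that of Ankrd1 were Cap1 (r = 0.995), Anxa5 (0.989) and Fxyd5 (0.987). For Rcan1 they were Pdlim1 (0.981), Maff (0.979) and Calr (0.979). Csrp3 was nearest to U2af1 (0.997), Sertad1 (0.993) and Tmem74b (0.984), and Fhl1 to Gadd45g (0.997), Gsdme (0.989) and Crebbp (0.986). Xirp2 was nearest to Bach2 (0.997), Ggnbp1 (0.992) and Sirt6 (0.989), Fhl2 to Dop1a (0.987), Smyd4 (0.974) and Srsf4 (0.969), and Hopx to Mettl8 (0.971), Cep63 (0.968) and Acp6 (0.966). With 6 libraries such values are common: the median over all these genes of the third-highest correlation was 0.985.

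The partners and pathways of the members were counted with the members left out. By library name edgeR, DESeq2 and limma-voom called 0 genes in these lists. Most signs were negative in all of these lists except the SRF targets and the load markers. Over all genes tested 45.5% were positive, with a median log2 fold change of -0.02. In the calcineurin and NFAT pathway 3 of 23 tested genes had a positive and 20 a negative log2 fold change, with a median of -0.13; Gsk3b, a kinase that opposes NFAT, was at -0.31 (SE 0.18). Among 18 partners of Xin repeat proteins and intercalated disc genes 2 were positive and 16 negative (median -0.14), and among 18 Z-disc genes 3 were positive and 15 negative (median -0.10). Tcap, the titin cap that binds Csrp3, stood against its list at 0.51 (SE 0.25, edgeR adjusted p = 0.9999). Of 17 SRF cofactors and regulators 3 were positive and 14 negative (median -0.11), with Mrtfa, an actin-sensing SRF coactivator, at -0.52 (SE 0.23, edgeR unadjusted p = 0.0452, adjusted 0.9999). The 26 SRF targets split into 14 positive and 12 negative (median 0.00083), the 20 YAP and TEAD genes into 5 and 15 (median -0.08), and the 19 load markers into 10 and 9 (median 0.0031). Acta1 and Actc1 of the SRF targets and Acta1, Timp1 and Piezo1 of the load markers were at 0 in all 6 libraries and were not tested. Whether a count of 0 reflects the RNA level of these genes was not examined. Of the other cell types, the epicardial and mesothelial markers had 1 positive and 8 negative genes (median -0.33; Aldh1a2 at -0.56, edgeR unadjusted p = 0.0107, and Krt19 at -0.73, unadjusted p = 0.0151). Summed, these 9 markers were at 220, 256 and 284 CPM in WT 1 to 3 and at 169, 205 and 235 CPM in KO 1 to 3; their part in the signs of the lists was not tested. Among titin partners of the ankyrin repeat proteins 4 of 12 were positive (median -0.10), and among LIM proteins 4 of 13 (median -0.05).

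By genotype field, where 48.1% of all genes were positive with a median of -0.01, several lists had mostly positive signs. In its main fit, edgeR called 0 genes of the pathway and partner lists. DESeq2 and the replicate block each called Zyx, Junb, Nkx2-5 and Socs3. Without the low-count filter edgeR called Zyx, Junb and Nkx2-5. With the summed cardiomyocyte level in the model it called Zyx and Nkx2-5. Positive log2 fold changes were found in 10 of 13 LIM proteins (median 0.37) and 14 of 18 Z-disc genes (median 0.19). The same held for 21 of 26 SRF targets (median 0.15) and 13 of 19 load markers (median 0.14). The cardiomyocyte list also had 11 of 15 positive (median 0.12). Other cell types had positive signs too, in 8 of 9 epicardial and mesothelial, 7 of 9 macrophage and 6 of 7 skeletal muscle markers tested. Signs were mixed in smooth muscle (6 of 11 positive), endothelial (6 of 10), fibroblast (5 of 9), white adipocyte (4 of 10) and atrial cardiomyocyte markers (5 of 13). Zyx, a focal adhesion LIM protein and SRF target, was at 91.6, 102 and 103 CPM in the field-WT libraries WT 1, KO 2 and KO 3 and at 182, 166 and 138 CPM in the field-KO libraries WT 2, WT 3 and KO 1. These groups did not overlap, and the log2 fold change was 0.71 (SE 0.15, edgeR unadjusted p = 0.000489, adjusted 0.551; adjusted p = 0.0265 with the replicate block and 0.0164 in DESeq2). Junb, an immediate early SRF target, was at 0.98 (SE 0.19, edgeR adjusted p = 0.536, 0.0111 with the block, 0.00541 in DESeq2). Nkx2-5, a cardiac factor that cooperates with SRF, was at 0.88 (SE 0.19, edgeR adjusted p = 0.551, 0.0307 with the block, 0.0279 in DESeq2). Socs3, a feedback inhibitor of cytokine signalling among the load markers, was at 1.38 (SE 0.43, edgeR adjusted p = 0.786, 0.00027 with the block, 0.0499 in DESeq2). Among Z-disc genes Flnc was at 0.49 (SE 0.18) and Actn2 at 0.38 (SE 0.15). The calcineurin and NFAT list had 11 positive and 12 negative genes (median -0.03), the YAP and TEAD list 7 and 13 (median -0.06), the SRF cofactors 6 and 11 (median -0.05), the Xin partners 7 and 11 (median -0.08) and the titin partners 8 and 4 (median 0.08).

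Myl2, the ventricular regulatory light chain, moved with the genotype field. It was at 32.6, 25.6 and 33.3 CPM in the field-WT libraries WT 1, KO 2 and KO 3 and at 251 to 357 CPM in KO 1 and WT 2 and 174 CPM in WT 3. All 9 listed ventricular markers had counts; summed, they were at 964 to 1190 CPM in the field-WT libraries and at 1223 to 1401 CPM in the field-KO libraries. Without Myl2 the sum of the other 8 overlapped, at 938 to 1158 CPM and 1044 to 1134 CPM, with WT 1 highest. Among them, Myl3 did not overlap. It was at 77.1, 76.1 and 54.3 CPM in WT 1, KO 2 and KO 3. In WT 2, WT 3 and KO 1 it was at 189, 125 and 165 CPM. Its log2 fold change was 1.20 (SE 0.19, edgeR unadjusted p = 5.79e-05, adjusted 0.213, and adjusted 1.17e-05 in DESeq2). Of the 8 ventricular markers tested, Myl2 included, 6 had a positive and 2 a negative log2 fold change. The part of these markers in the values by genotype field, Zyx, Junb and Nkx2-5 included, was not tested. Abra, an activator of SRF signalling at the Z-disc, was at 68.3, 44.0 and 86.5 CPM in WT 1 to 3 and at 31.8, 28.8 and 68.8 CPM in KO 1 to 3.

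Nppb, the load-induced natriuretic peptide and the gene most often read beside Ankrd1, was at 683, 1401 and 1436 CPM in WT 1 to 3 and at 984, 2317 and 1341 CPM in KO 1 to 3. KO 2 was highest for both genes, but KO 3 was lowest only for Ankrd1 and WT 1 only for Nppb. Both Nppb and Abra were chosen for mention with their values known.

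**Figure D5:**
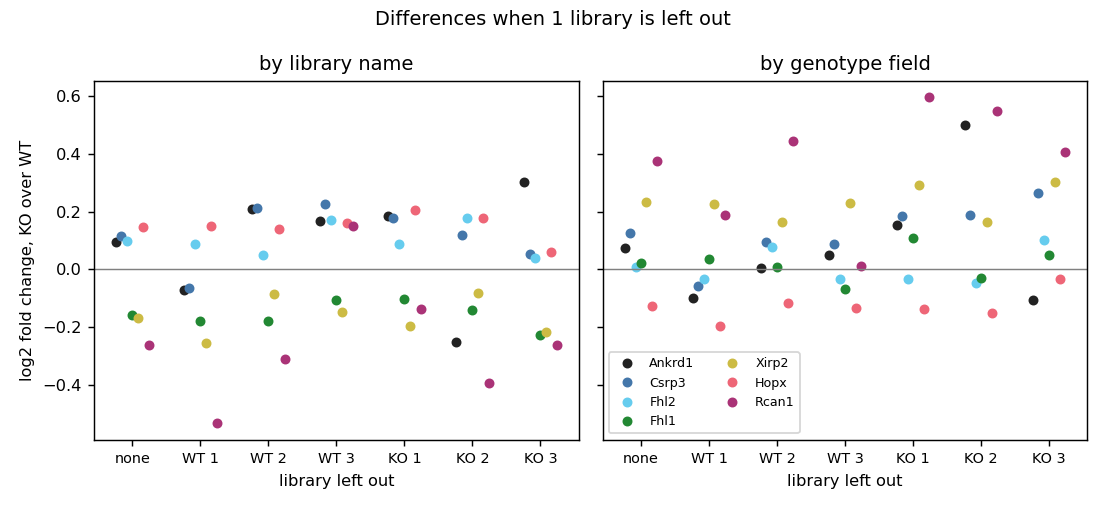
Log2 fold change of KO over WT (vertical axis) for the 7 tested members with no library left out and with each of the 6 libraries left out in turn (horizontal axis), by library name (left) and genotype field (right). Ankrd1 moves between -0.25 and 0.30 on the left and Rcan1 between 0.01 and 0.60 on the right, and the values of Xirp2, Hopx, Fhl1 and Fhl2 stay on the same side of 0 on the left.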

How the data were processed

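The authors deposited raw read counts per Ensembl gene, without normalisation. HISAT2 2.1.0 (build GRCm38), featureCounts 1.5.0-p3 and, for read quality, MultiQC 1.7 with FastQC 0.11.5 are listed in the submitters' processing notes. Which annotation, feature type and strand rule were counted is not given in the sources used here. The TruSeq v2 kit, with 1 µg of RNA as input per the labels, does not mark strand. Symbols were found for 54723 of 54838 identifiers, and positions come from GENCODE M21 (GRCm38).

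Genes were filtered with filterByExpr, scaled by TMM and tested with edgeR 4.0.16 (quasi-likelihood, robust) in R 4.3.3, Benjamini-Hochberg adjusted over all genes tested. Dividing the size of the log2 fold change by the root of its F statistic gave the SE. DESeq2 1.42.0, limma-voom (limma 3.58.1) and other filters, scalings, covariates and subsets were alternatives. The scripts were tested on simulated data. Intervals of single CPM values are 95% Poisson intervals and cover counting error only, as does the floor of 3 counts.

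The main tests did not pair the libraries, and the title's replicate numbers entered only as the block of an alternative fit. The deviations of same-numbered libraries correlated by 0.125 to 0.172 (library name) and 0.118 to 0.306 (genotype field). No such value was computed for libraries of different number, and the Old series has a replicate number to itself. These correlations therefore cannot tell whether the libraries were paired. Correlations were planned over all 10 members and were run on the 7 tested, which gives 21 pairs. The members and lists were chosen with earlier results of these data known. All members are named; from each list up to 3 genes with the smallest p in either reading could be named, besides Prkce, Myl2 and the 3 genes nearest to each member. Nppb, Abra and the list genes named for being at 0 fall outside this rule.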

Additional observations from a re-analysis of the deposited data

How the results depend on the processing

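No member passed the test in any alternative; the adjusted p values over all of them ran from 0.439 to 1.0. By library name 38 of 42 values from leaving out 1 library and 73 of 77 from other settings kept their sign, and by genotype field 33 of 42 and 68 of 77 did. The cause of the reversals was not tested. By library name, the Y-linked covariate gave -0.011 for Ankrd1, -0.042 for Csrp3 and -0.014 for Fhl2, and the numbered libraries alone gave -0.0046 for Csrp3. Leaving out 1 library gave -0.25 to 0.30 for Ankrd1, -0.065 to 0.22 for Csrp3 and -0.53 to 0.15 for Rcan1. By genotype field, the numbered libraries gave -0.017 for Ankrd1 and -0.074 for Fhl2, and scaling by library size gave -0.0083 for Fhl1 and -0.021 for Fhl2. Fhl2 was also at -0.0046 with RLE size factors, -0.0046 in DESeq2, -0.010 with the Y-linked covariate, -0.020 with the cardiomyocyte covariate and -0.00059 without mitochondrial transcripts. Leaving out 1 library gave -0.11 to 0.50 for Ankrd1, -0.058 to 0.26 for Csrp3, -0.069 to 0.11 for Fhl1 and -0.047 to 0.10 for Fhl2.

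Genes called by library name were 1 with no filter, 3 in the numbered libraries and 0 to 4 leaving out 1 library (2 without WT 1 and 4, all Y-linked, without WT 3). By genotype field they were 27 in DESeq2, 1 in limma-voom, 25 with no filter, 51 with the replicate block, 7 with the library series, 34 with the cardiomyocyte covariate and 0 to 2 leaving out 1 library (0 without WT 1 or KO 3). The replicate block changed no call of a member. Relative to the cardiomyocyte list, 1 pair of members passed the correlation test instead of 0. With 3 libraries in each group the 95% intervals still allow changes of up to 0.94 (lower) and 1.02 (higher) on the log2 scale for Rcan1.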
